A study of Bos taurus with 90 samples.

Results

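Mural granulosa cells (MGCs) of small bovine antral follicles that the study classed as healthy were set against MGCs of the remaining small follicles. The healthy follicles were GS62005, GS62004 and GS62003, and the others were GS50501, GS70501, GS50506, GS70701, GS50502 and GS71701, so that 9 MGC libraries of the 90 libraries in the series were compared. Members were chosen by follicle identifier. The series holds matched MGCs, pooled cumulus cells (CCs) and the oocyte of single follicles of Bos taurus, from ovaries collected at a slaughterhouse, in small, medium and large size classes. No treatment is named in the labels, all follicles had passed a check of their morphology, and MGC libraries were bulk polyA RNA-seq. The healthy follicles measured 3.5, 3.6 and 3.7 mm, and the others ranged from 3.1 to 3.8 mm, so the groups overlapped in size.

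Follicles are named here by GS and the digits of their library titles, and GS with the first 3 of these digits is called the prefix. MGC libraries of small follicles carry GS in their titles, while those of medium and large follicles carry GM and GL in its place. The healthy follicles all carried the prefix GS620, which no other retained follicle had, so class and prefix cannot be told apart. Of the other follicles, GS50501, GS50506 and GS50502 shared the prefix GS505 (3.1, 3.3 and 3.8 mm), and GS70501, GS70701 and GS71701 (3.2, 3.7 and 3.8 mm) had the prefixes GS705, GS707 and GS717. What a prefix stands for is not stated in the sources used here, nor which follicles came from the same cow, so p-values measure the spread between these samples. The study called follicles healthy from the levels of marker genes, among them high FSHR, the receptor of follicle-stimulating hormone, and low FAS, a death receptor, and from the place of these MGC libraries in a principal component analysis. P-values between the classes therefore concern groups that were formed in part on the same libraries. Genes are listed by Ensembl identifier alone and were not paired with symbols here, so FSHR, FAS and markers of granulosa or other cells were not read and the class itself was not checked.

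MGCs line the wall of the antral follicle, respond to follicle-stimulating hormone and convert androgens to estradiol. Most antral follicles do not ovulate but undergo atresia, a degeneration in which granulosa cells die by apoptosis, often before any change in morphology. CCs are the granulosa cells that surround the oocyte and exchange metabolites and signals with it.

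MGC libraries were of similar depth, with total counts from 26739954 to 38374499. The mean was 34136096 ± 2229115 (SD, n = 3) in GS620 follicles and 32620089 ± 4043265 (SD, n = 6) in the others (two-sided exact permutation test, p = 0.571). Genes with at least 1 count numbered 16960 ± 157 in GS620 follicles and 17735 ± 635 in the others (exact permutation test, p = 0.0952, adjusted p = 0.179 over 3 measures). The 100 most abundant genes took 40.0 ± 1.12% of the counts in GS620 follicles and 32.1 ± 6.70% in the others (exact permutation test, p = 0.119, adjusted p = 0.179). The share was lowest in the GS505 follicles. It was 24.6% in GS50501, 31.2% in GS50506 and 25.7% in GS50502, against 41.8% in GS70501, 37.7% in GS70701 and 31.5% in GS71701. With 84 arrangements of the 9 libraries, the smallest p possible was 0.0119. No pair of the 9 libraries agreed within sampling noise.

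Counts scaled to the library total (CPM) placed most genes of the GS505 follicles above the GS620 follicles, with a median difference over all genes of 0.26 on the log2 scale. With trimmed mean of M-values (TMM) scaling this median was 0.00. The differences below are on TMM-scaled CPM unless plain CPM is named.

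To learn which MGC genes distinguished healthy follicles from all others, 14769 genes were tested over the 9 libraries. None passed a fold change above 2 with an adjusted p below 0.05 in edgeR's quasi-likelihood test (0% of the genes tested), and the lowest adjusted p was 0.138. With edgeR's filterByExpr in place of the study-wide filter, 1 of 15371 genes passed (0.00651%). At an unadjusted p below 0.05, edgeR gave 1735 genes (11.7%) with a fold change above 2, of which 1247 were higher and 488 lower in the other follicles. DESeq2 called 895 genes, or 6.06% of those tested (683 higher and 212 lower). Limma voom with a weight for each group, which lets the classes differ in their spread, called 1028 genes, or 6.96% (482 higher and 546 lower). Of these, 657 were called by both tools, or 73.4% of the DESeq2 calls and 63.9% of the voom calls. The share of higher genes among the calls thus differed between tools. It also differed among all genes with a fold change above 2, whatever their p. These were 2508 higher and 960 lower in edgeR, 2486 and 939 in DESeq2, and 1638 and 1611 in voom.

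Single libraries moved these counts. Leaving out each library in turn gave 0 or 1 gene with edgeR, the 1 gene without GS50506. DESeq2 called 119 genes without GS62003, 226 without GS62005, 298 without GS62004, 1412 without GS70701 and 1749 without GS70501. Voom called none without GS62003 (1881 at an unadjusted p below 0.05 with a fold change above 2) and none without GS71701 (2198), 70 without GS50506, 368 without GS50502, 640 without GS62004 and 1686 without GS70501. With the prefix as a random block, voom called 0 genes, and the correlation within a prefix was 0.41.

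Groups did not overlap at 2058 genes (13.9% of those tested), of which 996 were higher and 1062 lower in all 6 other follicles than in all 3 of the GS620 follicles. On plain CPM this split was 1547 higher and 608 lower.

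The GS620 follicles lay close together. The study had classed them in part by their place in a principal component analysis of these libraries, so their closeness here, in the components and in the departures below, is a description that this choice fixes in part. The SD of each gene was taken on log2(CPM + 1) of plain CPM and not with TMM, so scale offsets of whole libraries can add to it. Its median over genes was 0.190 over the 3 libraries of prefix GS620, against 0.410 over the 3 of prefix GS505. It was 0.320 over GS70501, GS70701 and GS71701, and 0.498 over all 6 others. The SD was lower in GS620 than in GS505 follicles at 81.2% of the genes, and lower than in GS70501, GS70701 and GS71701 at 72.9%.

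**Figure D1:**
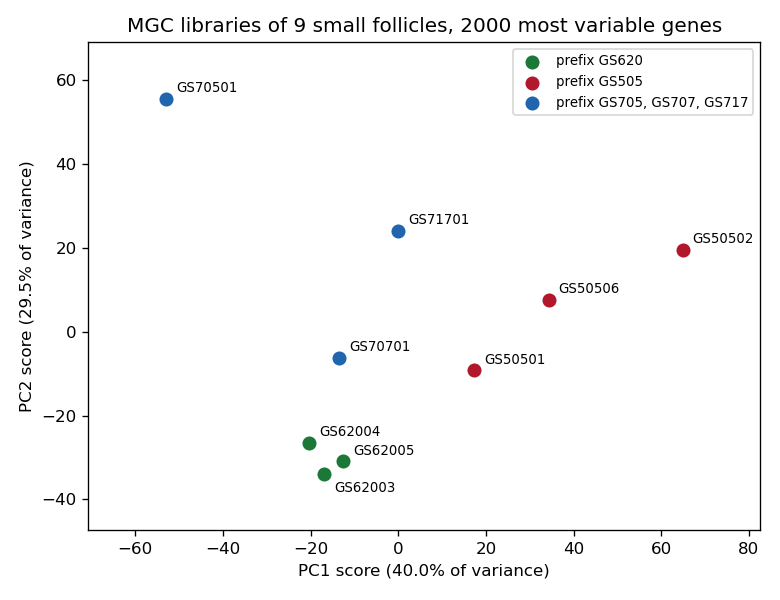
Scores of the 9 small MGC libraries on the first 2 principal components of log2(TMM-scaled CPM + 1) over the 2000 most variable genes, with 1 point per follicle coloured by prefix. The GS620 follicles sit together, the GS505 follicles spread along PC1, GS70501 lies far from all others, and GS70701 is the other follicle nearest to the GS620 follicles. On PC2 every other follicle lies above the GS620 follicles.

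In the principal component analysis, PC1 held 40.0% and PC2 29.5% of the variance. The GS620 follicles had PC1 scores of -12.5, -20.3 and -16.9 and PC2 scores of -30.9, -26.5 and -33.9. PC1 set apart the GS505 follicles, with 17.4 for GS50501, 34.3 for GS50506 and 64.9 for GS50502. Follicle GS70501 lay at the opposite end, at -53.0, with the highest PC2 score of 55.6. Follicle GS70701 had scores of -13.6 and -6.22, and GS71701 of -0.10 and 24. On PC2 the scores of GS50501, GS50506 and GS50502 were -9.21, 7.67 and 19.5. Every other follicle thus lay above every GS620 follicle on PC2, a separation that the way of classing fixes in part. On PC1 the GS620 follicles fell between GS70501 and the GS505 follicles, so the others shared a direction on PC2 and not on PC1.

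To measure how far each library lay from the healthy follicles, it was compared with the mean of 2 of the GS620 libraries at 10676 genes with a mean CPM of at least 5. For a GS620 library these were the remaining pair, and for the others the 3 possible pairs were averaged. More than a 2-fold departure occurred at 0.703% of the genes in GS62005, 0.759% in GS62004 and 0.281% in GS62003. In the GS505 follicles it occurred at 26.8% (GS50501), 29.8% (GS50506) and 37.9% (GS50502) of the genes. In GS70501 it was 20.7%, in GS71701 16.2% and in GS70701 only 4.98%. All 6 others departed at more genes than any GS620 follicle, but GS70701 departed at fewer genes than the remaining others. Departures went both ways, for example 14.2% higher and 12.6% lower in GS50501, or 2.77% higher and 2.2% lower in GS70701.

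**Figure D2:**
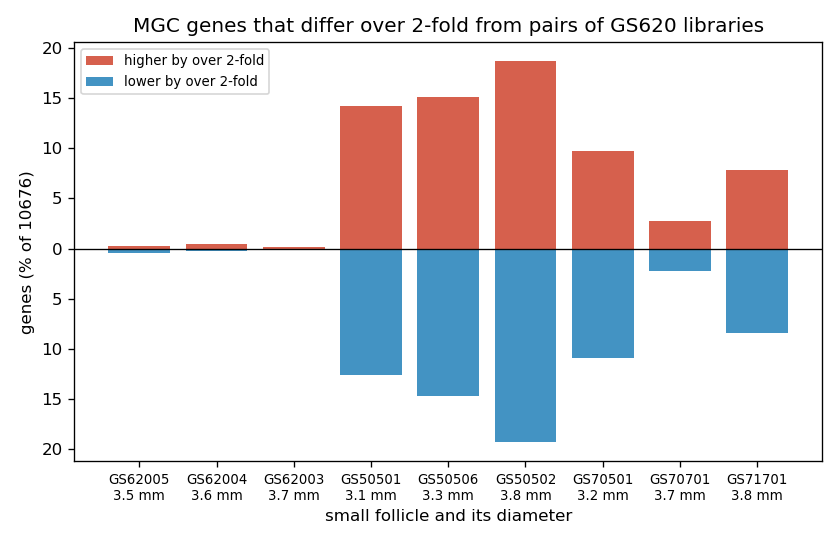
Percent of 10676 genes whose MGC level was over 2-fold higher (bars above 0) or lower (bars below 0) than the mean of 2 libraries of GS620 follicles, for each of the 9 small follicles. The GS620 libraries stay below 1%, GS70701 reaches 4.98%, and the GS505 follicles reach 26.8% to 37.9%.

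Since the others fell into follicles of 1 prefix and follicles of different prefixes, each kind was compared with the GS620 follicles by itself, a choice partly planned and completed after the data were seen. The GS505 follicles differed from the GS620 follicles at 2964 of 14697 genes (20.2%; edgeR, adjusted p below 0.05, fold change above 2), with 1805 higher and 1159 lower in GS505. DESeq2 called 3551 (24.2%), and 1 edgeR fit of the 3 prefix groups 2775 (18.8%). The edgeR count was 1644 without GS62005, 1310 without GS62004 and 1070 without GS62003, and up to 3872 without one of the GS505 libraries. Levels did not overlap at 43% of the genes, with 3211 higher and 3133 lower in GS505 follicles on TMM-scaled CPM, and 4850 higher and 1606 lower on plain CPM. Smaller groups fail to overlap more often by chance alone, so this share cannot be set beside that over all small follicles. The GS505 and the GS620 follicles differed in prefix as well as class, and these cannot be told apart.

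The follicles GS70501, GS70701 and GS71701 differed from the GS620 follicles at 72 of 14664 genes (0.491%), 63 higher and 9 lower, in edgeR. DESeq2 called 1085 genes (7.4%). In edgeR the count was 784 without GS70701, 645 without GS70501, 3 without GS71701 and 0 without any one of the GS620 follicles (1116 to 1430 at an unadjusted p below 0.05 with a fold change above 2). In 1 edgeR fit of the 3 prefix groups it was 0, with 1223 at the unadjusted p. Levels did not overlap at 31.3% of the genes.

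Both kinds of other follicles were also set against each other, in separate fits without any GS620 library. Here 737 of 14727 genes (5%) passed in edgeR, 221 higher and 516 lower in GS70501, GS70701 and GS71701 than in the GS505 follicles. DESeq2 called 2210 genes (15%). The fit of the 3 prefix groups, whose estimate of spread also draws on the GS620 libraries, called 2048 (13.9%). Levels did not overlap at 34.1% of the genes. The count from the separate edgeR fit was 0 when any one of the 6 libraries was left out, with 2188 to 2881 genes at an unadjusted p below 0.05 and a fold change above 2.

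The genes that distinguished the GS505 follicles were then read in the remaining MGC libraries. This is a description, because levels are relative to the mean of the same GS620 libraries that chose the genes. The median log2 difference of the 1805 higher genes was 0.02 in GS70501, 0.22 in GS70701 and 0.51 in GS71701. For the 1159 lower genes it was -0.23, -0.34 and -0.66. In the GS505 follicles themselves the medians were 1.40 to 1.63 and -1.49 to -1.22. All 8 medium follicles had positive medians for the higher genes (0.07 to 0.64, median 0.50) and negative ones for the lower genes (-0.81 to -0.02, median -0.56). In the 10 large follicles these medians were 0.33 to 1.15, centred on 0.55, and -1.13 to -0.24, centred on -0.57. Over all genes tested the medians of these libraries lay between -0.03 and 0.01. The GS620 follicles themselves ranged from -0.03 to 0.05 and from -0.11 to 0.08, and 3 medium follicles (-0.11, -0.03 and -0.02) lay within that range for the lower genes. No medium or large follicle reached the GS505 follicles, an order that the choice of the genes fixes in part.

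**Figure D3:**
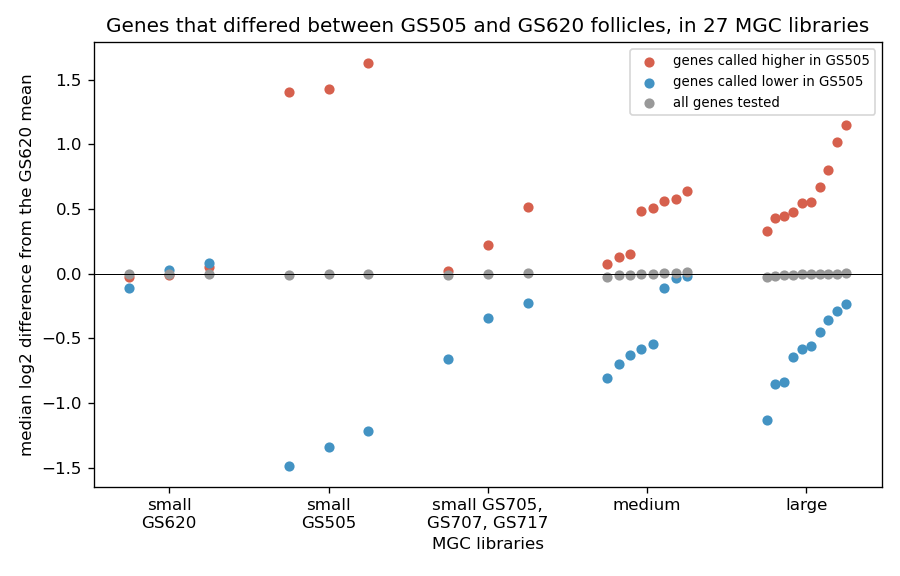
Median log2 difference from the mean of the GS620 libraries, in each of 27 MGC libraries, over the 1805 genes called higher in GS505 follicles, the 1159 called lower and all genes tested, with points sorted within a group and gene set. Medium and large follicles lie on the side of the GS505 follicles from 0 for both gene sets, 3 medium follicles within the GS620 range for the lower genes, and none reaches the GS505 follicles, while the medians over all genes stay near 0.

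Large follicle GS50505 is the only other retained follicle with the prefix GS505. Compared with the median of the other large follicles, which involves no GS620 library, its median difference was 0.40 for the higher and -0.06 for the lower genes. The gap between both was 0.45, exceeded by 1.26 in GS62803 and 0.54 in GS72102, and the lowest large follicle had -0.73. Follicle GS50505 was therefore within the range of large follicles with other prefixes.

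Follicle GS70501 stood apart by a group of genes at low levels. In it, 349 of the 10676 genes were more than 4-fold below each of the 8 other small follicles, against 40 such genes in GS50502, 10 in GS50501 and at most 5 in any of the others. The median level of the 349 genes was 0.384 CPM in GS70501. It was 16.4 to 20.1 CPM in the GS620 follicles, 9.27 to 24.4 CPM in the GS505 follicles, 15 CPM in GS70701 and 11.4 CPM in GS71701. These values chose the genes and carry no test.

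The same genes were read in medium and large follicles, which had no part in choosing them. Their median was 5.19 to 27.4 CPM in the 8 medium follicles and 6.94 to 32.6 CPM in 9 of the 10 large follicles. In large follicle GS50505 it was 0.182 CPM. There, 454 of the 10676 genes (4.25%) were more than 4-fold below each of the 9 other large follicles, and 255 of them belonged to the 349 genes, or 73.1% of that group and 56.2% of the 454. Each of the other large follicles had 1 to 7 genes so far below the rest, and each medium follicle 0 to 22, with at most 5 of the 349 among them. Follicles GS70501 and GS50505 differed in prefix and size class, and only these among the 27 libraries had these genes at such low levels.

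The 349 genes were mostly at low levels in the other cells of small follicles. Only 98 of them (28.1%) had a mean of at least 1 CPM in the CC pools of small follicles and 161 (46.1%) in the oocytes, against 93.3% and 87.6% of the 10676 genes. Over these 98 genes the CC pool of GS70501 did not stand apart, with a median log2 difference of 0.08 from the CC pools of the GS620 follicles. In bulk libraries fewer cells of a type and less RNA per cell cannot be told apart. Whether another cell type carried these genes was not tested. Total count (38374499) and the share of the 100 most abundant genes (41.8%) were the highest of the 9 libraries in GS70501, and the number of genes detected (16773) was the lowest.

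**Figure D4:**
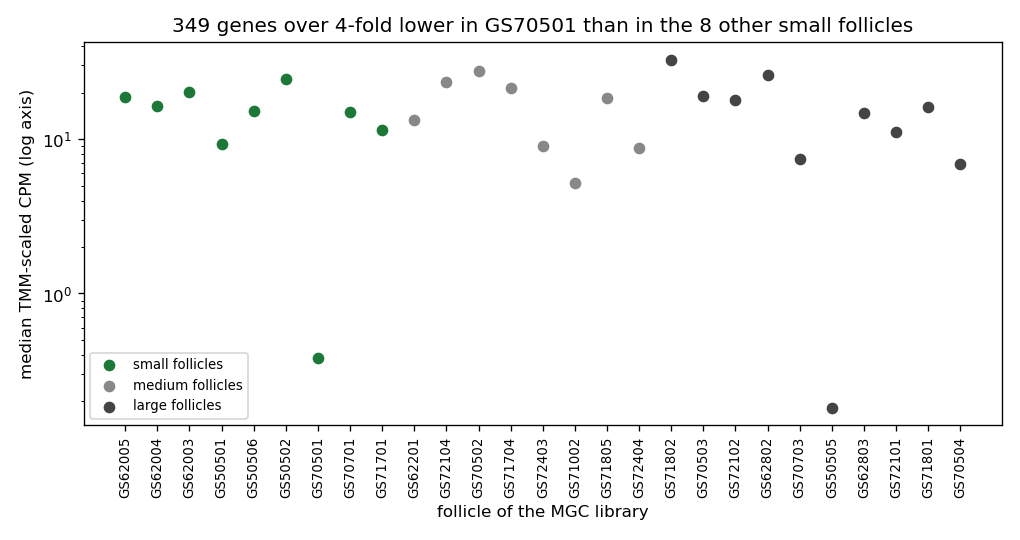
Median TMM-scaled CPM, on a log axis, of the 349 genes that were over 4-fold lower in follicle GS70501 than in the 8 other small follicles, for each of 27 MGC libraries. Follicle GS70501 (0.384) and large follicle GS50505 (0.182) lie far below the remaining libraries, which range from 5.19 to 32.6. Follicles of all size classes are labelled with GS.

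In the opposite direction GS50502 was farthest from the rest, with 33 genes more than 4-fold above each of the 8 other small follicles. There were 11 such genes in GS50506, 10 in GS50501, 1 in each of GS70501, GS70701 and GS71701, and none in a GS620 follicle.

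No gene passed the planned rule for naming, so 4 identifiers were chosen after their values were seen. Among genes without overlap and with log2 CPM averaging 3 or more, they are those of lowest p in each direction over the 9 libraries, and the largest rise and fall among the calls between GS505 and GS620 follicles. Their levels are in plain CPM, as mean ± SD. What these genes encode was not analysed here.

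ENSBTAG00000021855 had the lowest p of these genes that were higher in the other follicles. Its level was 1.58, 1.14 and 1.56 CPM in GS62005, GS62004 and GS62003. It was 12.6, 13.4 and 16.6 CPM in GS50501, GS50506 and GS50502, and 16.2, 5.87 and 19.6 CPM in GS70501, GS70701 and GS71701. Every other follicle lay above every GS620 follicle, with GS70701 nearest to them, and the means were 1.43 ± 0.250 (n = 3) and 14.0 ± 4.72 (n = 6). The log2 fold change was 3.03 (SE 0.45), with an adjusted p of 0.138 in edgeR, 6.7e-10 in DESeq2 and 0.0200 in limma voom. It passed in edgeR against the GS505 follicles alone (2.91, SE 0.34, adjusted p = 0.00296) and against the other 3 (3.18, SE 0.48, adjusted p = 0.0463). Both comparisons use the libraries that chose the gene and share the GS620 libraries, so they are not independent of that choice. Over all alternatives run, its adjusted p ran from 6.7e-10 to 0.851.

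In the CC pools of the same follicles, which were not used to class them, this gene was at 9.13 ± 1.30 CPM (n = 3) for GS620 follicles and 24.3 ± 11 CPM (n = 5) for the others. All 5 pools of the others were higher, with 10.4 CPM in GS50502 just above the highest GS620 pool of 10.1 CPM. The CC log2 fold change was 2.15 (SE 0.68) and did not pass over all genes in edgeR (unadjusted p = 0.00842, adjusted p = 0.642). That fit used TMM scaling, while the levels above are plain CPM. The TMM factors were 0.50 for the CC pool of GS50501 and 0.68 for that of GS71701, against 1.21 to 1.30 for the GS620 pools. The part of this scaling in the fold change was not tested. In oocytes the levels were 2.41 to 2.75 CPM in GS620 follicles and 0 to 11.8 CPM in the others, so the groups overlapped. MGCs of medium follicles had 7.22 ± 6.72 CPM (n = 8) and those of large follicles 2.74 ± 2.0 CPM (n = 10).

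ENSBTAG00000018286 had the lowest p of these genes that were lower in the other follicles. Its level was 38.7, 38.1 and 38.7 CPM in GS62005, GS62004 and GS62003. The GS505 follicles had 19.9, 18.4 and 16.8 CPM and GS70501, GS70701 and GS71701 had 20.1, 18.1 and 17.9 CPM. The groups did not overlap, at 38.5 ± 0.343 (n = 3) and 18.5 ± 1.29 CPM (n = 6). The log2 fold change was -1.32 (SE 0.21), with an adjusted p of 0.138 in edgeR, 2.19e-06 in DESeq2 and 0.0200 in limma voom, and over all alternatives run it was 2.19e-06 to 0.851. Follicle GS70701, near the GS620 follicles over most genes, had the level of the other group for this one. Medium (35.2 ± 10.4 CPM, n = 8) and large follicles (33.7 ± 10.6 CPM, n = 10) ranged from 21.3 to 58.7 CPM, on either side of the GS620 follicles. On TMM-scaled CPM the small groups were at 43.1 ± 1.42 and 17.6 ± 3.76, with GS70501 highest of the others at 24.8, and medium and large follicles ranged from 20.4 to 66.9. That medium and large follicles lay above all 6 others thus held on plain CPM and not with TMM. In CC pools the gene was at 198.6 ± 28.8 CPM (n = 3) and 226.7 ± 148 CPM (n = 5), and the groups overlapped.

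ENSBTAG00000008827 showed the largest rise between GS505 and GS620 follicles. It was at 0.240 to 1.11 CPM in GS620 follicles. In GS50501 it reached 1.87 CPM and in the remaining GS505 follicles 8.5 and 495.6 CPM, and GS70501, GS70701 and GS71701 ranged from 9.91 to 103.0 CPM. All other follicles were higher than the GS620 follicles, and 1 of the GS505 follicles carried most of the mean. The log2 fold change was 7.82 (SE 2.07, edgeR adjusted p = 0.0275) in GS505 follicles and 7.20 (SE 2.01, edgeR adjusted p = 0.145) over all 6 others. Levels were also variable in MGCs of medium (0.746 to 1061 CPM) and large follicles (30.8 to 1907 CPM).

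ENSBTAG00000049408 showed the largest fall. Its level was 17.5 ± 8.65 CPM in GS620 follicles (n = 3), 2.14 ± 1.55 CPM in GS505 follicles (n = 3) and 25.6 ± 6.66 CPM in GS70501, GS70701 and GS71701 (n = 3). Among small follicles only those of GS505 were low, at 0.355 to 3.10 CPM. Medium (2.89 to 13.3 CPM, median 5.39) and large follicles (0.585 to 47.7 CPM, median 4.75) reached equally low levels. In edgeR it was lower in GS505 than in GS620 follicles (log2 fold change -3.45, SE 0.77, adjusted p = 0.0148) and higher in the last 3 than in GS505 follicles (3.88, SE 0.77, adjusted p = 0.0386), the latter without any GS620 library, though the gene was chosen for its low level in GS505 follicles.

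**Figure D5:**
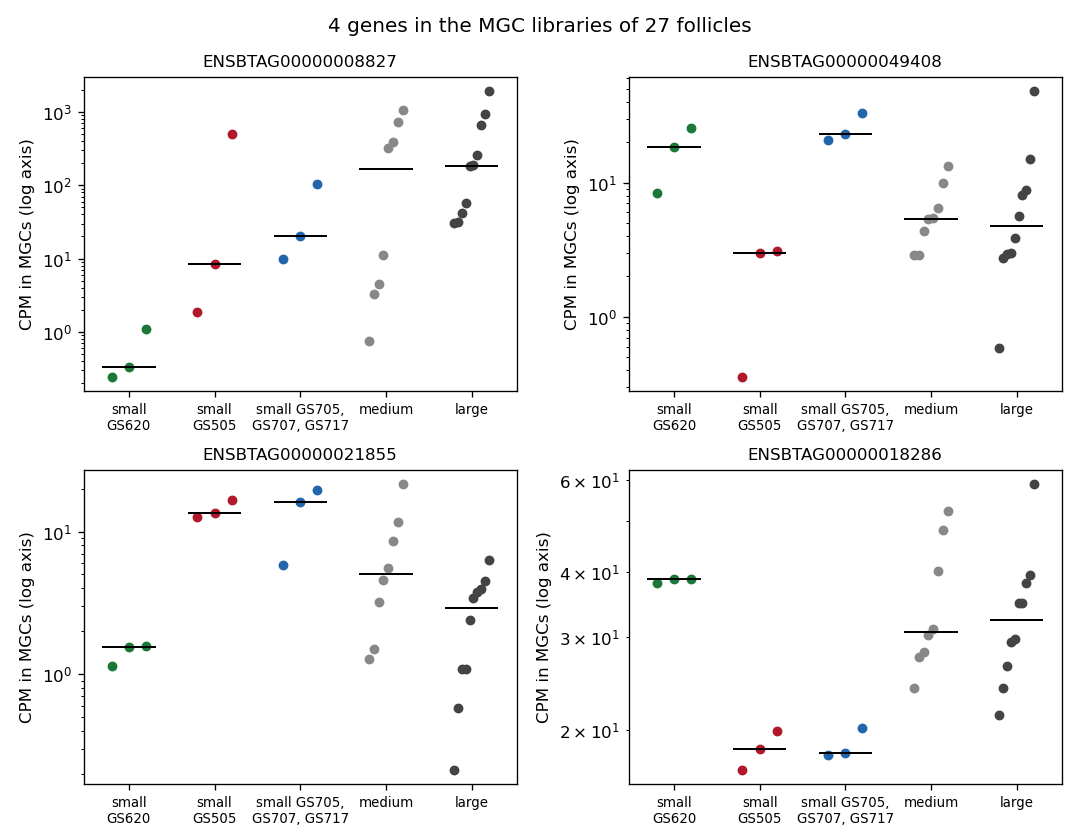
Levels of the 4 genes in CPM on log axes in each of 27 MGC libraries, grouped as small follicles of prefix GS620, of prefix GS505 and of prefixes GS705, GS707 and GS717, medium and large follicles, with bars at the medians. The GS620 follicles do not overlap the other small follicles for ENSBTAG00000008827, ENSBTAG00000021855 and ENSBTAG00000018286, and for ENSBTAG00000049408 the GS505 follicles are the lowest of the small follicles, with several medium and large follicles at similar levels.

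CC pools and oocytes of the same follicles gave a readout that had no part in the class. The CC pool of GS70701 had counts at 1066 genes only and was left out. In CCs 0 of 14711 genes passed in edgeR (0%), with 1027 at an unadjusted p below 0.05 and a fold change above 2, and DESeq2 called 47 (0.319%). In oocytes 0 of 14584 genes passed in edgeR (0%), with 324 at the unadjusted p, and DESeq2 called 21 (0.144%). These counts do not show that CCs or oocytes were alike between the classes, nor that the genes called by DESeq2 differed. Depth varied more here, from 8760201 to 34620362 counts in the CC pools compared and from 20559699 to 53173320 in oocytes. Against the prefixes taken by themselves, edgeR called 0 genes in CCs (1025 at the unadjusted p) and 2 in oocytes (0.0139%) of GS505 follicles. It called 1 gene in CCs of GS70501 and GS71701 (0.0069%) and 1 in oocytes of GS70501, GS70701 and GS71701 (0.00691%).

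The genes that distinguished the GS505 follicles in MGCs did not keep their direction in CCs. In the CC pools of GS50501, GS50506 and GS50502, the median log2 difference of the higher genes from the GS620 pools was -1.07, -0.28 and -0.10, and that of the lower genes 1.26, 0.51 and 0.13. Over all genes tested the medians were -0.53, -0.02 and 0.00. In the CC pool of GS70501 the values were 0.37 for the higher and -0.47 for the lower genes, and in that of GS71701 -0.46 and 1.31. The GS620 pools themselves ranged from -0.13 to 0.17 and from -0.17 to 0.10 around their mean. In oocytes of GS50501, GS50506 and GS50502 the higher genes had medians of -0.14, -0.08 and -0.45 and the lower genes 0.40, 0.33 and 0.04, beside medians over all genes of 0.00, -0.03 and -0.34. The oocyte of GS50502 had 10588 genes detected, the fewest of the 9 oocytes. For these genes the MGCs and CCs of GS50501 and GS50506 thus lay on opposite sides of the GS620 follicles, while the CC medians of GS50502 differed little from the range of the GS620 pools. The CC pools with the lowest values for the higher genes also differed in quality measures. GS50501 had 11872 genes detected, 53.5% of its counts in the 100 most abundant genes and a TMM factor of 0.50, and GS71701 had 14262 genes, 44.0% and a factor of 0.68. The GS620 pools had 14076 to 16299 genes, 28.4% to 30.4% and factors of 1.21 to 1.30. The part of these measures in the result was not tested.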

How the data were processed

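MGC libraries were made from extracted total RNA, and CC and oocyte libraries with SMART-seq2 amplification without molecular identifiers. The authors deposited unnormalized counts per gene by Ensembl identifier (27270 genes), counted with featureCounts on ARS-UCD1.2, with HISAT2 2.2.1 per the labels. The study's methods name STAR, and which aligner made the counts was not settled. Among MGC counts of 1 to 20, 56.3% to 66.3% were even. None of the identifiers matched the reference table, so gene names, cell type markers, mitochondrial shares, pathway lists and ligand-receptor pairs were not analysed here.

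Groups followed the follicle identifier. A small follicle (GS70702) that the study removed was left out. A gene was kept if 15 or more retained libraries of a single cell type exceeded 1 CPM (15134 genes). Kept genes with counts in the libraries compared were tested with edgeR 4.0.16 (TMM, quasi-likelihood, Benjamini-Hochberg) in R 4.3.3. A gene was called at a fold change above 2 and an adjusted p below 0.05. Alternatives were DESeq2 1.42.0, limma 3.58.1 voom with a weight for each group or the prefix as a random block, other filters and size factors, diameter as a covariate, other sets of libraries and leaving out each library. Permutation tests, principal components and plots used Python 3.11.15, scipy 1.17.1, numpy 2.4.6, pandas 2.3.3 and matplotlib 3.10.9. Fold changes are other minus GS620.

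The rule for named genes asked for called genes with a symbol, no overlap and log2 CPM averaging 3 or more. It gave none, and 4 identifiers were chosen afterwards. The members and lists were chosen with earlier results of these data known. The edgeR and DESeq2 fits between the classes in each cell type were also run on simulated counts. Of the fits by prefix, only edgeR's between GS505 and GS620 follicles in MGCs was run on them, and voom was not.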

Additional observations from a re-analysis of the deposited data

Results flagged for a closer look

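The other small follicles of prefix GS505 and those of prefixes GS705, GS707 and GS717 differed from each other at 737 genes in edgeR, a direct test of the difference between their effects against the GS620 follicles. The count fell to 0 when any one of the 6 libraries was left out.

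Follicle GS70501 lay far from the remaining 5 other small follicles in the number of genes over 4-fold below all 8 other libraries, which was 349. Follicle GS50502 lay far from the remaining 5 in the number of genes over 4-fold above all 8 other libraries, which was 33. These were 2 of 24 groups of values examined for a distant sample, and chance gives about 1 in 20.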

How the results depend on the processing

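For MGCs over 9 libraries, edgeR's count of 0 became 1 with filterByExpr or no filter, 8 over all 27 retained MGC libraries, 895 with DESeq2, 1028 with voom weights, 1735 at an unadjusted p, 2964 with the GS505 follicles as the only others, 72 with GS70501, GS70701 and GS71701 as the only others, and 0 to 1 when each library was left out. It remained 0 with DESeq2's size factors, with diameter as a covariate and with the removed small follicle added. Limma voom with the prefix as a random block also called 0, with 543 genes at the unadjusted p against edgeR's 1735. Leaving out each library gave 119 to 1749 genes with DESeq2 and 0 to 1686 with voom weights. In CCs the count was 47 with DESeq2 and 0 to 1 with a library left out, and in oocytes 21 and 0 to 1.

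Between GS505 and GS620 follicles, leaving out each library gave 1070 to 3872 genes. Between GS70501, GS70701 and GS71701 and the GS620 follicles the count was 1085 with DESeq2, 0 in 1 fit of the 3 prefix groups and 0 to 784 with a library left out. Against the GS505 follicles it was 2210, 2048 and 0 to 0. ENSBTAG00000049408 changed sign to 0.47 where GS70501, GS70701 and GS71701 were the only others. Their mean was 25.6 CPM, against 17.5 CPM in GS620 follicles and 2.14 CPM in the GS505 follicles that this fit left out. The cause of the remaining changes was not tested. The medians of the spread kept their order with a pseudocount of 0.1 and at a mean CPM above 10. No paired analysis was possible because each follicle gave 1 MGC library and belonged to 1 class.

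Only 3 follicles were in the healthy class, all of 1 prefix, so the class and whatever the prefix stands for cannot be told apart. Depth was even over the MGC libraries. The amplified CC and oocyte libraries varied more in depth and in the genes detected.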
